A study of Oryza sativa with 6 samples.

Results

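The genes described here are 144 rice genes that carry no gene name in the reference table. Their leaf transcript signal passed a threshold of fall after 3 h in 200 mM NaCl, but not yet at 20 min, in both genotypes of the study. Smaller falls at 20 min were allowed. The reference gives each of them only a symbol made of LOC and a gene number, and all 144 are protein coding. They were chosen from 12476 unnamed genes with a measurable signal, among 14510 genes with a measurable signal and 17905 genes with a probe set of their own. Signals were put on the scale log2(signal + 16), on which a difference of -1 is a 2-fold fall of the signal plus 16. A member had to differ by -1 or less at 3 h against before in both genotypes, and by more than -1 at 20 min against before in both genotypes. Its mean over the 6 arrays had to be at least 5.5, and where a gene had several probe sets the one with the highest mean stood for it, probe sets ending in _x_at being left out. The 3 h and 20 min differences therefore chose the members and are given as descriptions, with no test.

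Gene expression was measured on 6 Affymetrix rice arrays, in leaves of 2-week-old seedlings of the japonica cultivar Zhonghua 11. The antisense-OsPDCD5 seedlings carry a transgene in antisense to OsPDCD5, whose name refers to programmed cell death, and the nontransgenic seedlings are the control of the same cultivar. Each genotype was sampled before treatment, 20 min after transfer to dishes of Murashige and Skoog medium with 200 mM NaCl, and 3 h after that transfer. Each of the 6 groups was 1 array hybridised with RNA of 10 plants.

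The labels name no promoter for the antisense transgene and no number of transgenic lines. Whatever else sets the transgenic seedlings apart from the nontransgenic ones cannot be told apart from the transgene. OsPDCD5 transcript was not analysed here. No seedlings are labelled as moved without NaCl or as kept untreated for 3 h, so salt, handling and the hours that passed cannot be told apart. In leaf RNA, fewer cells of a type and less RNA per cell cannot be told apart either.

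Salt reaches a seedling first as a shortage of water and later as a build-up of sodium in the leaves. Growth slows within the first of these phases, and leaf cells retune transcripts for wall loosening and hormone signalling. Leaf transcripts of the circadian clock also change over the hours of the day without any stress. Many rice genes known from the genome sequence alone take part in such shifts without a described role, and no role is given to the members here.

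Arrays correlated with each other at 0.903 to 0.972 over the 28961 rice probe sets with a mean of at least 5.5. Both leaf marker genes were bright on every array: CAB2R, a light-harvesting protein gene, had signals of 27103 to 42348, and RBCS, a small subunit of Rubisco, had signals of 2218 to 5084. Root marker genes were measured too: the phosphate transporter gene PHT1-1 had 1476, 2954 and 1937 in antisense-OsPDCD5 leaves and 7457, 6518 and 5358 in nontransgenic leaves, and none of the 6 root markers was under 16 on every array. The root list was matched by gene names alone. GL2 in that list has a symbol outside those planned, so its use as a root marker is uncertain. Of 6 root marker genes, 1 was higher at 3 h past the threshold and none was lower, and of 10 genes of dividing cells none passed in either direction. The number of arrays limits the precision, since no group had a replicate. The log2 ratio of the 3-prime to the 5-prime control probe set of GAPDH, a sign of RNA quality, was 0.99 before treatment, 3.73 at 20 min and 0.65 at 3 h in antisense-OsPDCD5 leaves and 4.14, 3.90 and 0.33 in nontransgenic leaves, and its part in the results was not tested. The same ratio for actin was 4.66, 4.82 and 4.17 in antisense-OsPDCD5 leaves and 5.98, 4.66 and 4.88 in nontransgenic leaves.

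Before treatment the members spanned a wide range of signals. Their median signal in antisense-OsPDCD5 leaves was 1402 before treatment, 1274 at 20 min and 405.2 at 3 h. In nontransgenic leaves it was 1157, 1041 and 418.6 at the same stages. The mean log2(signal + 16) of the median member was 9.67, the same as that of the median unnamed gene with a measurable signal. In 72 members the signal before treatment was at least 1000 in both genotypes. At 3 h, 19 members had a signal under 16 in at least 1 genotype, and for these the size of the log2 change depends on the number added.

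The change at 3 h against before had a median of -1.44 in antisense-OsPDCD5 leaves and -1.30 in nontransgenic leaves over the members. The mean of the 2 genotypes lay between -2.92 and -1.04, with a median of -1.40, whereas the median over all 28961 rice probe sets tested was 0.01. Most falls were moderate: 110 members stayed under 4-fold in both genotypes, 24 reached 4-fold in 1 genotype and 10 in both. Of the unnamed genes, 173 (1.39%) met the 3 h criterion, which 1.36% of all probe sets tested met, and 29 of them were left out because they were already down by 1 or more at 20 min in at least 1 genotype. The 144 members are 1.15% of the unnamed genes, and 31 of 2034 named genes (1.52%) met the whole rule. A change in the other direction by the mirrored rule was met by 240 unnamed genes (1.92%).

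**Figure D1:**
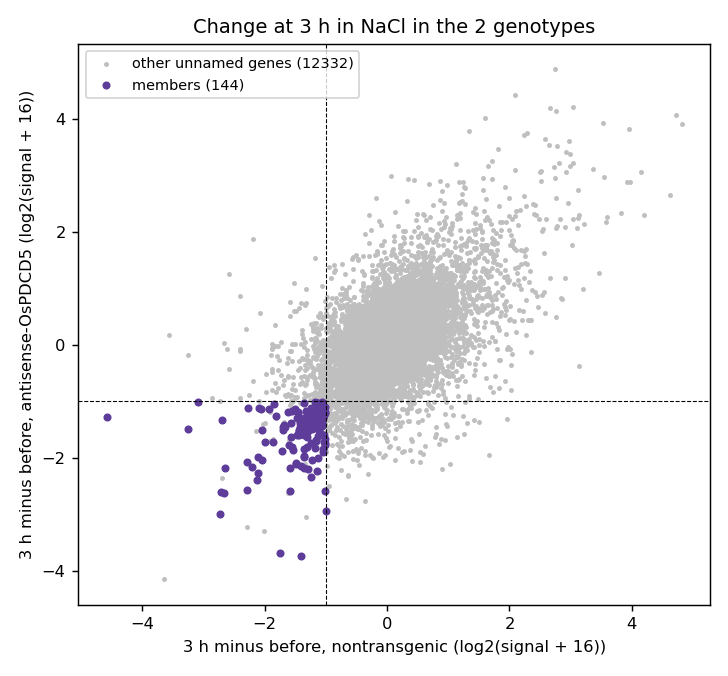
The change at 3 h against before in nontransgenic leaves (x axis) is plotted against that in antisense-OsPDCD5 leaves (y axis), both as differences of log2(signal + 16), with 144 members in purple and 12332 other unnamed genes in grey. Dashed lines mark -1, so members fill the lower left corner by construction. The grey points there are genes already down by 1 or more at 20 min in at least 1 genotype.

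LOC4330310 kept its signal for 20 min and then dropped. It read 5524 before treatment, 5355 at 20 min and 679.6 at 3 h in antisense-OsPDCD5 leaves, and 2651, 2325 and 386.3 in nontransgenic leaves. The 3 h value was the lowest of its genotype in both, with changes of -2.99 and -2.73. LOC4324568 behaved alike at a higher level, with 11146, 11291 and 2307 in antisense-OsPDCD5 leaves and 7217, 5547 and 1662 in nontransgenic leaves. LOC4324704 read 7027, 6270 and 1562 in antisense-OsPDCD5 leaves and 2931, 2070 and 623.1 in nontransgenic leaves. Both of these genes were higher in antisense-OsPDCD5 leaves at each stage and fell by a like amount in the 2 genotypes, by 2.26 and 2.11 for LOC4324568 and by 2.16 and 2.21 for LOC4324704.

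In other members with a large fall, the 20 min signal already lay below the starting one. LOC4350534 had signals of 5142, 2810 and 833.2 in antisense-OsPDCD5 leaves and of 3097, 1936 and 457.6 in nontransgenic leaves, from before treatment to 3 h. LOC4351831 had 4818, 3495 and 902.4 in antisense-OsPDCD5 leaves and 3112, 1934 and 702.5 in nontransgenic leaves. LOC4348082 had 3250, 2206 and 704.9 in antisense-OsPDCD5 leaves and 1452, 728.8 and 217.8 in nontransgenic leaves. In these 3 genes each later signal was below the one before it, in both genotypes. The same order held for LOC4328220, with 1559, 849.2 and 250.4 in antisense-OsPDCD5 leaves and 962.0, 596.4 and 183.4 in nontransgenic leaves.

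LOC4326273 ended near background. Its signals were 103.3, 131.8 and 3.40 in antisense-OsPDCD5 leaves and 130.1, 200.0 and 6.94 in nontransgenic leaves. Both 3 h signals lay under 16, so its mean change of -2.65 became -4.31 with 1 added in place of 16 and -1.38 with 64 added.

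**Figure D2:**
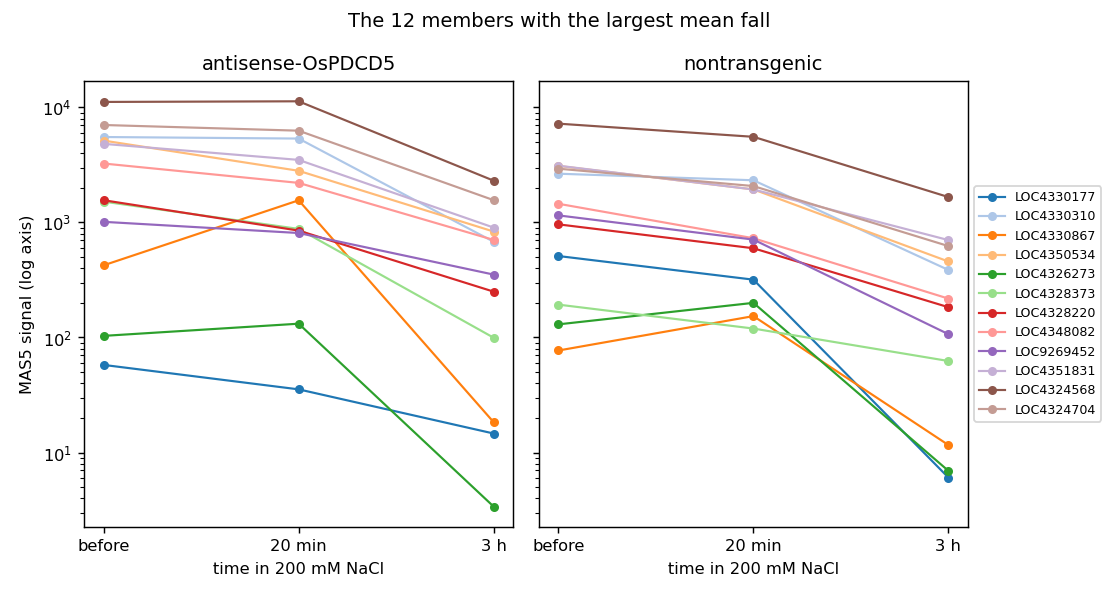
MAS5 signals (log axis) of the 12 members with the largest mean fall at 3 h, at the 3 stages of NaCl treatment, in antisense-OsPDCD5 leaves (left) and nontransgenic leaves (right), each point 1 array. All 12 are lowest at 3 h in both genotypes, and LOC4330867 and LOC4326273 are highest at 20 min in both.

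The 6 members with the highest mean level before treatment were among the bright transcripts of the leaf. LOC4337235 had signals of 25486 before treatment, 17825 at 20 min and 11270 at 3 h in antisense-OsPDCD5 leaves, and 16657, 10810 and 7535 in nontransgenic leaves. LOC4344635 had 20504, 21949 and 5786 in antisense-OsPDCD5 leaves and 17731, 18981 and 7814 in nontransgenic leaves. The first of these genes stepped down at each stage, and the second was highest at 20 min in both genotypes. LOC4330459 held 18861 and 18612 up to 20 min and 4577 at 3 h in antisense-OsPDCD5 leaves, against 14806, 11072 and 3567 in nontransgenic leaves. LOC4329037 had 23800, 22330 and 10492 in antisense-OsPDCD5 leaves and 13007, 12053 and 6460 in nontransgenic leaves. LOC4348336 had 17099, 11733 and 7932 in antisense-OsPDCD5 leaves and 14854, 9458 and 6271 in nontransgenic leaves. Even at 3 h these 5 genes, and LOC4323880 described further on, kept signals of 2929 or more.

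At 20 min the members were spread around a small negative change. The mean of the 2 genotypes at 20 min against before had a median of -0.22 over the members, against 0.01 over all probe sets tested. It was below 0 in both genotypes in 83 members, above 0 in both in 32 and of mixed sign in 29. Among all probe sets tested, 29.9% were below 0 in both genotypes and 31.9% above 0 in both. In 69 members the 20 min change was within 0.5 in both genotypes, and in 17 it was -0.5 or lower in both, a share met by 2.81% of all probe sets tested. The 20 min and 3 h changes share the arrays from before treatment, and the rule limits the 20 min change on its low side. No test of these counts was made.

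A few members were up at 20 min before they were down at 3 h. LOC4336904 had signals of 21.44 before treatment, 367.6 at 20 min and 2.54 at 3 h in antisense-OsPDCD5 leaves, and 192.3, 1111 and 8.32 in nontransgenic leaves. LOC4335826 had 168.8, 552.4 and 64.09 in antisense-OsPDCD5 leaves and 189.8, 656.0 and 70.04 in nontransgenic leaves. Both genes peaked at 20 min in both genotypes, with 20 min changes of 3.36 and 2.44 for LOC4336904 and of 1.62 and 1.71 for LOC4335826. LOC4326784, with signals of 2503, 5037 and 704.5 in antisense-OsPDCD5 leaves and 1530, 3116 and 605.1 in nontransgenic leaves, was the only other member up by at least 1 in both genotypes; it lies outside the naming rule and is named because the count is 3. Among all probe sets tested, 1.49% were up by at least 1 in both genotypes at 20 min.

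The remaining large rises at 20 min differed in size between the genotypes. LOC4330867 had 424.3, 1557 and 18.38 in antisense-OsPDCD5 leaves and 77.09, 153.4 and 11.63 in nontransgenic leaves. LOC4347256 had 37.52, 53.86 and 4.67 in antisense-OsPDCD5 leaves and 34.17, 143.9 and 2.80 in nontransgenic leaves. LOC107278748 had 904.7, 1294 and 437.7 in antisense-OsPDCD5 leaves and 976.6, 3065 and 370.3 in nontransgenic leaves. In LOC4330867 the 20 min peak was taller in antisense-OsPDCD5 leaves, and in LOC4347256 and LOC107278748 it was taller in nontransgenic leaves.

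**Figure D3:**
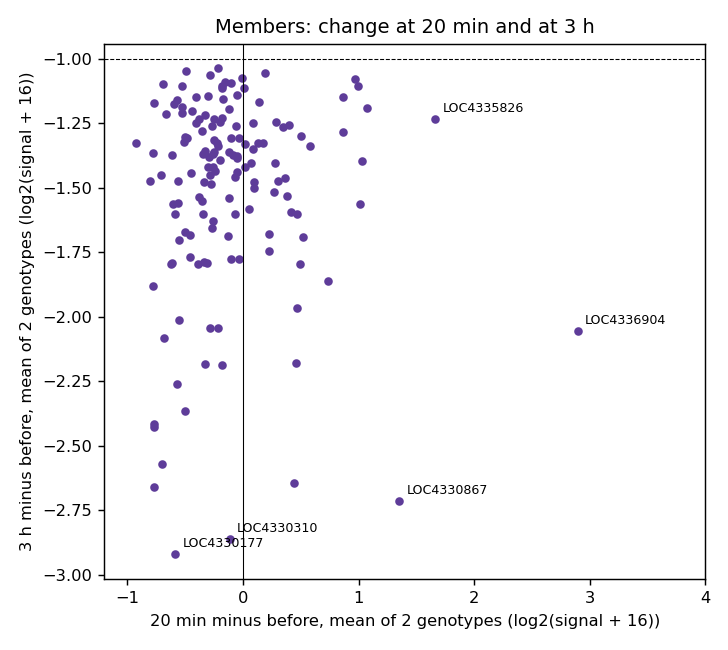
Each of the 144 members is placed by its change at 20 min (x axis) and at 3 h (y axis) against before, as the mean of the 2 genotypes on the log2(signal + 16) scale. Most points lie between -0.93 and 0.5 on the x axis, and LOC4336904 stands apart with a 20 min change of 2.90; the dashed line marks -1 at 3 h.

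The genotypes could be compared with a test, because the rule did not use the difference between them. The contrast of antisense-OsPDCD5 minus nontransgenic was fitted over the 3 stages with limma, adjusted by Benjamini-Hochberg over all 28961 probe sets, with a threshold of 0.05. The error comes from how far single arrays stray from an additive pattern of genotype and stage, so a p-value says whether a difference repeats over the stages and measures no spread between replicate samples. Of the 144 members, 44 (30.6%) were higher in antisense-OsPDCD5 leaves, against 9.81% of all probe sets tested. A further 14 members (9.72%) were lower, against 10.5% of all probe sets tested, and 86 were not called. In either direction together, 20.3% of all probe sets were called. Among the unnamed genes that are not members, 9.85% were higher and 12.7% lower. Every called member kept its sign at all 3 stages, which the call itself largely requires, since differences that vary between stages raise the error.

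Some markers moved with the genotype as well. The summed signal of the 6 root markers was 3761, 5505 and 4532 in antisense-OsPDCD5 leaves and 10411, 9712 and 7734 in nontransgenic leaves. PHT1-1 made up most of the nontransgenic sums, with 7457, 6518 and 5358. It was the only 1 of the 6 called, lower in antisense-OsPDCD5 leaves with a difference of -1.64 (limma, adjusted p = 0.00388). The others went both ways: Lsi1 (0.43) and GL2 (0.92) were higher in antisense-OsPDCD5 leaves at each stage. PHT1-8 (-0.61), YSL15 (-0.26) and PT1 (-0.21) had negative differences. The summed signal of the 2 leaf markers was 42911, 47432 and 45598 in antisense-OsPDCD5 leaves and 29584, 40828 and 43242 in nontransgenic leaves. CAB2R made up most of these sums and was not called, with a difference of 0.25 (limma, adjusted p = 0.192). RBCS was higher, by 0.56 (limma, adjusted p = 0.00945). Of 10 genes of dividing cells, 1 was higher and 1 lower. The 3-prime to 5-prime log2 ratio of EF1a was -1.33, -0.09 and -0.81 in antisense-OsPDCD5 leaves, above the -1.49, -2.99 and -2.25 of nontransgenic leaves at each stage. The part of tissue content and RNA quality in the members' genotype differences was not tested.

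The 44 higher members differed mostly by modest amounts. Their median difference was 0.74, and 33 of them were under 2-fold. The 14 lower members had a median of -1.39, and 11 of them were at least 2-fold. Over all members the median difference was 0.24, whereas it was 0.00 over all probe sets tested and -0.04 over the unnamed genes that are not members. Stage by stage, the median member was higher in antisense-OsPDCD5 leaves by 0.22 before treatment, 0.18 at 20 min and 0.14 at 3 h.

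The direction of these counts rests on how the arrays are set against each other. Scaled to the poly-A control probe sets, an alternative chosen after seeing the data, the median genotype difference of the members moved to -0.24 and that of all probe sets to -0.45. On that scale 9 members were higher and 53 lower, against 3.6% and 39.3% of all probe sets tested. The median member stood 0.22 above the median of all probe sets with that scaling and 0.23 above it as deposited. Scaling multiplies all signals of an array by the same number, so this gap was nearly fixed in advance and tests nothing. Scaled to the hybridisation control probe sets, 33 members were higher (7.86% of all probe sets) and 21 lower (14% of all probe sets). Without the arrays from before treatment 19 members were called higher and without those of 20 min 21, against 5% and 5.6% of all probe sets. Without the 3 h arrays 47 were, against 10.3% of all probe sets.

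Bright probe sets were called more often, so the share was also read within classes of mean log2(signal + 16). Among members with a mean of 5.5 to under 8, 3 of 38 (7.9%) were higher, against 4.48% of the other unnamed genes in that class. From 8 to under 10 the count was 8 of 39 (20.5%), against 8.07%. From 10 to under 12 it was 20 of 45 (44.4%), against 12.1%, and at 12 and above it was 13 of 22 (59.1%), against 20% of the others. Members called lower numbered 7 (18.4%), 2 (5.13%), 4 (8.89%) and 1 (4.55%) in the same order of classes, against 12%, 14.2%, 12.6% and 11% of the other unnamed genes. In the dimmest class, more members were thus called lower than higher. The rule asks both genotypes to fall, and parallel genotypes leave small errors in the fit. The median standard error was 0.16 for members and 0.15 for the other unnamed genes. These errors are drawn towards a trend shared by all probe sets, so they cannot show the rule's part in the calls, which was not tested.

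**Figure D4:**
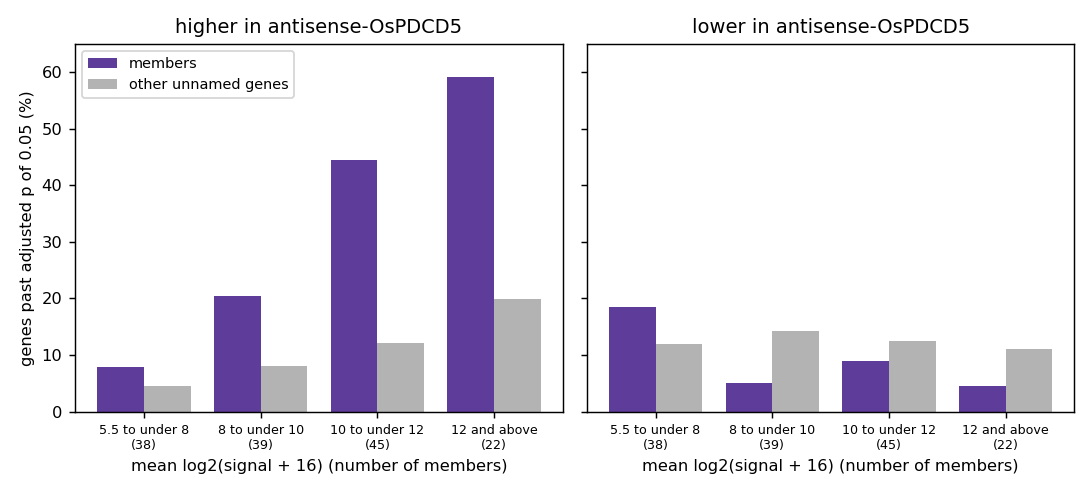
Bars give the percentage of genes past the adjusted p of 0.05 that were higher (left) or lower (right) in antisense-OsPDCD5 leaves, for members (purple) and other unnamed genes (grey), by class of mean log2(signal + 16), with the number of members in brackets. The share called higher is larger for members in each class, with 59.1% against 20% in the brightest. With poly-A scaling 9 members were higher and 53 lower, against 3.6% and 39.3% of all probe sets tested.

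LOC4340075 had the largest difference among the higher members. Its signals were 6856 before treatment, 9275 at 20 min and 1756 at 3 h in antisense-OsPDCD5 leaves, against 770.1, 382.9 and 291.4 in nontransgenic leaves. All 3 antisense-OsPDCD5 signals lay above all 3 nontransgenic ones, with a fitted difference of 3.40 ± 0.35 (SE over 3 stages; limma, adjusted p = 0.00146). Another probe set of this gene gave a difference of 3.33 (limma, adjusted p = 0.00257).

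LOC4323880 was bright in both genotypes, with 24115, 17346 and 7944 in antisense-OsPDCD5 leaves and 8149, 6676 and 2929 in nontransgenic leaves. It was higher by 1.46 ± 0.09 (SE; limma, adjusted p = 0.000262), and the 3 h changes were close, -1.60 and -1.47. LOC4336497 had 7702, 6775 and 2712 in antisense-OsPDCD5 leaves and 3299, 2301 and 1002 in nontransgenic leaves, a difference of 1.40 ± 0.11 (limma, adjusted p = 0.000541). LOC4324704 and LOC4348082, given above among the largest falls, were higher by 1.38 ± 0.11 and 1.45 ± 0.14 (limma, adjusted p = 0.00065 and 0.00113). In all 4 genes the antisense-OsPDCD5 signal was above the nontransgenic one at each stage, and their calls held under every alternative run.

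LOC4335780 had signals of 1405, 2211 and 635.3 in antisense-OsPDCD5 leaves and 705.8, 765.4 and 172.4 in nontransgenic leaves. It was higher by 1.43 ± 0.18 (limma, adjusted p = 0.00306), and the brightest of its other probe sets gave 1.25 (limma, adjusted p = 0.00441), while 2 dimmer ones, at -0.47 and 0.21, were not called. LOC4328373 and LOC4330867 were higher by 2.05 ± 0.44 and 1.92 ± 0.51 (limma, adjusted p = 0.0216 and 0.042). Their genotype gap was wide before treatment and narrow at 3 h, and both calls were lost without the arrays from before treatment, without those of 20 min and without the variance trend. Another, dim probe set of LOC4328373 differed by 0.12 and was not called.

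Among the lower members, LOC4344914 differed most. It read 104.5, 68.0 and 14.58 in antisense-OsPDCD5 leaves, against 1467, 1408 and 328.3 in nontransgenic leaves. Its highest antisense-OsPDCD5 signal was below its lowest nontransgenic one, and the difference was -3.73 ± 0.19 (limma, adjusted p = 0.000115). The fall at 3 h was nearly the same in the 2 genotypes, by 1.98 and 2.11.

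LOC4343852 had 1888, 2231 and 734.1 in antisense-OsPDCD5 leaves and 14844, 11558 and 6564 in nontransgenic leaves, so that even the lowest nontransgenic signal exceeded every antisense-OsPDCD5 one. The difference was -2.82 ± 0.16 (limma, adjusted p = 0.00016). LOC4332069 had 94.07, 85.91 and 22.14 in antisense-OsPDCD5 leaves and 348.6, 339.8 and 123.2 in nontransgenic leaves, a difference of -1.80 ± 0.20 (limma, adjusted p = 0.00211). LOC4337482 had 3859, 4118 and 813.0 in antisense-OsPDCD5 leaves and 10977, 8595 and 4946 in nontransgenic leaves, a difference of -1.72 ± 0.27 (limma, adjusted p = 0.00694). In these genes the 2 genotypes did not overlap on any array.

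LOC4340493 had 188.9, 251.6 and 84.4 in antisense-OsPDCD5 leaves and 916.9, 560.4 and 404.9 in nontransgenic leaves, a difference of -1.79 ± 0.24 (limma, adjusted p = 0.00416). LOC4337918 had 136.0, 211.5 and 50.77 in antisense-OsPDCD5 leaves and 493.4, 389.3 and 168.9 in nontransgenic leaves, a difference of -1.35 ± 0.23 (limma, adjusted p = 0.00928). The groups overlapped in LOC4337918 only through its nontransgenic 3 h array, and its call was lost without the arrays from before treatment. LOC4352759, near background with 28.54, 19.91 and 1.0 in antisense-OsPDCD5 leaves and 109.8, 61.38 and 38.32 in nontransgenic leaves, differed by -1.43 ± 0.32 (limma, adjusted p = 0.0237), and its call was lost with any 1 stage left out. LOC4336904 differed by -1.47 ± 0.40 (limma, adjusted p = 0.0454), a call lost without the arrays from before treatment, without those of 20 min and without the variance trend.

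**Figure D5:**
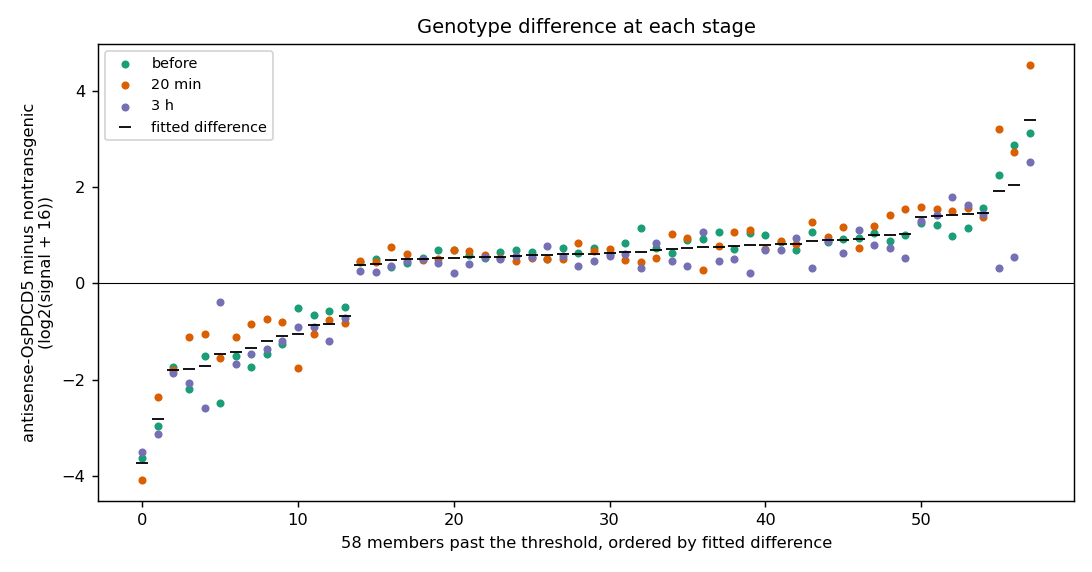
Difference of antisense-OsPDCD5 minus nontransgenic (log2(signal + 16)) before treatment, at 20 min and at 3 h for the 58 members past the adjusted p of 0.05, ordered along the x axis by the fitted difference (black dash). The 14 members on the left are below 0 and the 44 on the right above 0 at all 3 stages, which the call largely requires. The widest spread between stages is seen in the members at the far right.

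In the higher members the gap between genotypes was smaller at 3 h than before. Their median difference was 0.85 before treatment, 0.76 at 20 min and 0.56 at 3 h, and 31 of the 44 (70.5%) fell more in antisense-OsPDCD5 leaves, as did 93 of all 144 members (64.6%). The 3 h change in antisense-OsPDCD5 minus that in nontransgenic leaves had a median of -0.13 over all members and -0.02 over all probe sets tested. The rule used these 3 h changes, so the counts are descriptions. The median change at 3 h of these 44 was -1.54 in antisense-OsPDCD5 leaves and -1.36 in nontransgenic leaves. In the 14 lower members the median difference was -1.5 before treatment, -1.08 at 20 min and -1.42 at 3 h. With 1 array per group, a difference of response between the genotypes was not tested.

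Over all 144 members the 3 h changes of the 2 genotypes were within 0.5 of each other in 106 and more than 1 apart in 11, of which 6 fell more in antisense-OsPDCD5 leaves and 5 in nontransgenic leaves. LOC4328373 fell by 3.73 in antisense-OsPDCD5 leaves and by 1.41 in nontransgenic leaves, with signals of 1516, 878.4 and 99.61 against 193.0, 119.6 and 62.47. LOC4350979 fell by 2.93 and by just over the threshold, with signals of 1839, 1871 and 227.0 in antisense-OsPDCD5 leaves and of 1398, 2628 and 689.6 in nontransgenic leaves. LOC4343051 fell by 2.58 and 1.02, with signals of 3305, 2347 and 540.8 in antisense-OsPDCD5 leaves and of 1764, 1037 and 863.5 in nontransgenic leaves. In these genes, as in LOC4330867, the antisense-OsPDCD5 leaves began higher.

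In the other direction, LOC4330177 had the widest gap. Its signals were 57.75, 35.42 and 14.64 in antisense-OsPDCD5 leaves and 510.4, 318.1 and 6.07 in nontransgenic leaves, changes of -1.27 and -4.58. Both 3 h signals were under 16. LOC9269452 had 1012, 809.2 and 352.2 in antisense-OsPDCD5 leaves and 1151, 709.3 and 106.9 in nontransgenic leaves, and LOC4350066 had 341.4, 287.3 and 126.1 in antisense-OsPDCD5 leaves and 522.0, 278.2 and 66.95 in nontransgenic leaves. Both began lower in antisense-OsPDCD5 leaves, with differences of -0.18 and -0.59, and ended higher there.

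The threshold cuts through a continuous range. Just inside it in the weaker genotype were LOC4350979 at -1.002, LOC9270817 at -1.007 and LOC4347717 at -1.008. Just outside were LOC4347137 at -0.9997, LOC4326464 at -0.9945 and LOC4334637 at -0.9942. Adding 64 in place of 16 kept 93 of the genes, and asking for a fall of 1.5 in both genotypes kept 23.

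For 25 members the array held another probe set of the gene, 34 in all, which the rule did not use for the member. Of the 21 with a mean of at least 5.5, from 16 genes, 18 were below 0 at 3 h in both genotypes, against 31% of all probe sets with 1 gene, and 9 were at -1 or less in both. Their median mean change was -1.15. These probe sets read the same arrays, so they bear on the probes and not on the plants. The 12 that end in _x_at, which can match more than 1 transcript, had a median of -1.22, and the 9 others had a median of -0.60, with 7 below 0 and 3 at -1 or less in both genotypes. Of the 13 probe sets under the minimum, 7 were below 0 in both. Among those past the minimum, the probe sets of a gene disagreed most in LOC4328373, where the member's changed by -2.57 and the other by -0.32, in LOC4332500, with -1.40 and -0.18, and in LOC4341482, with -2.18 and -1.18. The other probe sets of LOC4328373 and LOC4332500 had means of 5.82 and 6.88, near the minimum. Under the minimum, where signals are close to background, the widest gap was that of LOC4337482, whose dim probe set changed by 0.72 where the member's changed by -1.69.

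Of the members' own probe sets, 129 end in _at alone, 13 in _s_at and 2 in _a_at, endings that mark probes shared by several transcripts. Near-identical gene copies could share probes, which was not checked here.

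Some members are neighbours in the genome, and the number of such pairs to expect from random placement was not worked out. In the reference order of 29427 protein-coding genes, 3 pairs of members were next to each other: LOC4352758 with LOC4352759, LOC4330230 with LOC4330231, and LOC4335780 with LOC4335782. LOC4330230 had signals of 2879, 2016 and 942.6 in antisense-OsPDCD5 leaves and 2065, 1846 and 792.7 in nontransgenic leaves, and its neighbour LOC4330231 had 7446, 5390 and 3123 in antisense-OsPDCD5 leaves and 5779, 5046 and 2535 in nontransgenic leaves. Both stepped down at each stage in both genotypes. LOC4352758, beside LOC4352759, had 1143, 750.6 and 346.4 in antisense-OsPDCD5 leaves and 1047, 1046 and 460.3 in nontransgenic leaves. LOC4340493 lies next to MADS55, a named gene with the same pattern.

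Of the 31 named genes that met the same rule, 10 belong to the gene lists matched by name and 21 to none, and their median change at 3 h was -1.42. The listed ones were the expansin and expansin-like genes EXPB4 (mean change -1.89) and EXLA4 (-1.18), the wall-list genes EXO1 (-2.19), XTH8 (-1.33), for an enzyme acting on xyloglucan, and BURP17 (-1.15), the cytokinin-list genes RR9 (-1.92), a response regulator, and LOGL10 (-1.66), the auxin-list genes IAA8 (-1.36) and PIN5A (-1.28), and the clock gene LHY (-1.42). Of the 21 others, the 5 with the largest fall were 4CL2 (-2.49), for a 4-coumarate:CoA ligase, ADF11 (-2.22), for an actin-depolymerising factor, TPP1 (-1.97), for a trehalose-6-phosphate phosphatase, the sugar transporter gene SWEET2B (-1.97) and the glutamine synthetase gene GLN1;2 (-1.73). The remaining 16 lay between -1.56 and -1.18 and were STLP2, RINO1, MADS50, CAD3, MADS55, SSI2, ACT2, SCAMP6, FRK1, SPS2, TPP7, SMOS1, ADCS, HSFC1A, SAM2 and 4CL1. The symbols EXO1 and BURP17 lie outside the planned wall patterns, and with no product descriptions their place among wall genes is uncertain. No enrichment of any kind of gene among the 31 was tested.

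LHY had signals of 36711, 34646 and 12908 in antisense-OsPDCD5 leaves and 27660, 28459 and 11007 in nontransgenic leaves. Another clock gene, GI, moved the other way, with 3258, 4837 and 10262 in antisense-OsPDCD5 leaves and 1796, 2900 and 10970 in nontransgenic leaves, a 3 h contrast of 2.13 ± 0.23 (limma, adjusted p = 0.007). Of 7 clock genes 2 were higher and 1 lower at 3 h. The part of the time of day in the members' falls was not tested.

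Gene lists matched by name put the same time point in context, with 3.38% of all probe sets tested called higher and 2.53% lower at 3 h. Of 16 expansin genes, which loosen the growing wall, 5 were lower and none higher, although their median change was -0.02. EXPB3 was one of the lower ones, with 1968, 596.3 and 100.4 in antisense-OsPDCD5 leaves and 6031, 5241 and 1530 in nontransgenic leaves (3 h contrast -3.03 ± 0.45, limma, adjusted p = 0.0158). Of 29 wall-list genes 2 were lower, EXO1 and BURP17, and none higher. CSLA5 (3 h contrast 1.70) and LAC7 (1.55) of that list rose and were not called (limma, adjusted p = 0.0617 and 0.054). In the lists of 28 auxin and 20 cytokinin genes, 1 was higher and 1 lower in each. The auxin genes were IAA13 (2.52; limma, adjusted p = 0.0029) and PIN5A (-1.28; limma, adjusted p = 0.00616). The cytokinin genes were ORR3 (0.82; limma, adjusted p = 0.0284) and RR2 (-2.32; limma, adjusted p = 0.00729). The 3 h calls depend on the variance model, since none of the 1712 was left without the intensity trend, where 5538 probe sets had an unadjusted p under 0.05.

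In the genotype contrast, 7 of the 31 named genes of the same pattern were higher (22.6%) and 4 lower (12.9%), and of the 240 unnamed genes with the mirrored pattern 13.3% were called in each direction. PIN5A was higher in antisense-OsPDCD5 leaves by 1.21 (limma, adjusted p = 0.000883), with 4760, 3896 and 1797 against 1929, 1600 and 857.2 in nontransgenic leaves. EXPB4 was lower, with a difference of -2.51 (limma, adjusted p = 0.000772), with 196.4, 104.3 and 48.79 against 1138, 941.9 and 260.1 in nontransgenic leaves. A difference between members and these named genes in the share called was not tested.

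Probe sets that the platform annotation ties to no gene followed the pattern at a like rate. Of 10932 such probe sets with a mean of at least 5.5, 111 (1.02%) met the rule.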

How the data were processed

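The authors deposited log2 values of MAS5 signals, a tool named in the submitters' processing notes. Its version and scaling target are not given in the sources used here. In the files the lowest signal was 1, and the mean linear signal, trimmed by 2% at each end, lay between 497.3 and 497.6 on every array. Detection calls were not used here.

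The platform annotation tied 22436 of 57258 rice probe sets to 1 gene and 95 to several, which were not named; 123 control probe sets were left out of the tests. Symbols came from the RefSeq gene table of a rice assembly. A synonym that is a gene name, and not a clone or locus number, put a gene among the named ones. The table holds no product descriptions and no sequences were used, so product classes and promoters are not analysed here. The gene lists were therefore matched on names alone, and their patterns were narrowed after seeing which names matched.

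After undoing the log2, 16 was added to each signal and log2 was taken again. An additive model of stage and genotype was fitted to the 28961 probe sets with a mean of at least 5.5 (limma 3.58.1, R 4.3.3, eBayes with intensity trend, Benjamini-Hochberg, threshold 0.05). It left 2 residual degrees of freedom, with a prior of 4.54 and a median residual SD of 0.20. The fit was tested on simulated data.

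Members, lists and tests were chosen with earlier results of these data known. Named members are the 12 largest mean falls, the 6 highest before treatment, the 5 largest rises at 20 min, up to 8 genotype differences past the threshold and 4 response differences in each direction, the 3 nearest the threshold on each side, and the 3 with the most unlike probe sets. The plan was to name up to 3 genes per list with the largest 3 h change, and not all of these are named. A gene named to illustrate a count outside this rule was chosen after its values were seen, as were the named genes of the same pattern. Alternatives varied the number added, the minimum, the scaling, the variance trend, the arrays and the rule.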

Additional observations from a re-analysis of the deposited data

How the results depend on the processing

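The rule found 144 genes; 93 with 64 added, 95 with a 20 min limit of -0.5, 23 with a 3 h limit of -1.5, and 120 to 173 under the other settings, among them 151 when the probe set was chosen after the change criteria, an alternative added after seeing the data. The members' median 3 h change was -1.29 with 64 added and -1.49 to -1.39 otherwise. Of 58 members called for genotype, 27 were called without the trend and 29 to 63 with 1 stage left out. For members called higher these were 16 without the trend and 19 to 47 with 1 stage left out, against 4.85% and 5% to 10.3% of all probe sets. For those called lower they were 10 to 16, against 5.33% to 10.9% of all probe sets. Poly-A scaling gave 9 higher and 53 lower, against 3.6% and 39.3%. The genotype contrast called 5882 probe sets, 12435 with poly-A scaling, of which 1044 were higher and 11391 lower against 2841 and 3041 as deposited, 3062 without the trend, and 2994 to 6140 with 1 stage left out. The 3 h contrast called 1712 probe sets, 992 with no minimum, 0 without the trend and 357 to 2180 with 1 array left out. With no minimum more probe sets were tested, and leaving out arrays left fewer samples. Yet leaving out arrays also raised some counts, up to 6140 for the genotype contrast and 2180 for the 3 h contrast. The cause of these shifts was not tested. Of 25 named members called for genotype, poly-A scaling ended the call of LOC4330459 and of 7 others. The difference of LOC4330459 was then near 0 with its sign turned (-0.0165; limma, adjusted p = 0.955). Leaving out the arrays from before treatment or from 20 min ended 9 calls each. No paired analysis was possible because each group holds 1 array, so a replicate number pairs nothing beyond the stage and genotype terms already in the fit. Signals near 16 give changes whose size depends on the number added.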
